A study of Mus musculus with 9 samples.

Results

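Atf4 and 8 amino acid transporter genes were followed in CD8+ T cells labelled WT or Tsc1-/-. Tsc1 is part of the TSC complex that holds mTORC1 in check. The set holds 9 of the 17097 genes measured: the transcription factor gene Atf4, and Slc7a5, Slc3a2, Slc1a5, Slc7a1, Slc7a6, Slc7a11, Slc38a1 and Slc38a2. They were chosen by name, and for each the value is that of its brightest probe set, by the mean of the 9 arrays, among those annotated to that gene alone. All 9 genes had such a probe set, and no filter on low values was used. The CD8+ T cells recognised OVA, a protein used as a test antigen, and were flow sorted from spleens of C57BL/6 mice 9 days after infection with Listeria monocytogenes. The WT group (4 arrays) came from mice with Tsc1-fl/fl alleles and no cre, and the Tsc1-/- group (5 arrays) from mice with the same Tsc1-fl/fl alleles and Granzyme B-cre, which acts in cells that have switched on the granzyme B gene. Every Tsc1-/- mouse and no WT mouse carried cre, so the effect of cre and that of Tsc1 loss cannot be told apart, and the labels give neither the age of the mice nor whether each array stands for a separate animal. P-values therefore measure the spread between these samples, which may in part be technical.

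As background, naive T cells import few amino acids, and activation raises the transporters that feed protein synthesis and mTORC1. Slc3a2 encodes the heavy chain CD98, which pairs with light chains such as Slc7a5 (leucine and other large neutral amino acids), Slc7a6 (cationic amino acids such as arginine, in exchange for neutral ones) and Slc7a11 (cystine in exchange for glutamate). Slc1a5, Slc38a1 and Slc38a2 carry glutamine and small neutral amino acids, and Slc7a1 carries arginine and lysine. Atf4 is the effector of the amino acid response. Its protein is set largely by translation under control of eIF2alpha phosphorylation, it is also promoted by mTORC1, and several of these transporters are among its targets. The arrays measure RNA, not protein or transport.

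Atf4 acts at a DNA element made of a C/EBP and an ATF site, so RefSeq promoter windows (GRCm38.p6, from 250 bases before to 50 bases after a transcript start) were searched on both strands for its core letters, TGATGNAA, where N is any base. No other motif was searched, and an element outside these windows or with other letters would be missed. Windows were matched for 6 of the 9 genes (Atf4, Slc3a2, Slc7a1, Slc7a6, Slc7a11 and Slc38a2), and only that of Slc7a11 held a match. It held 2, starting 66 bases before the start on the gene's strand and 47 bases before it on the other strand. Of all 32851 windows, 3.97% held a match, and a match is no more than a stretch of letters. The 100 bases before the Slc7a11 start (chr3:50443614-50443713, minus strand) are shown because it is the gene of the set with these letters. The other lines are 30-base windows of Atf4 target genes on the same array, which allow their RNA to be set beside the element: Asns (chr6:7693214-7693243, minus strand), Chac1 (chr2:119351038-119351067, plus strand), Atf3 (chr1:191183425-191183454, minus strand) and Trib3 (chr2:152344028-152344057, minus strand). All are written 5′ to 3′ along the gene, with the matched letters, on either strand, in capitals.
Slc7a11: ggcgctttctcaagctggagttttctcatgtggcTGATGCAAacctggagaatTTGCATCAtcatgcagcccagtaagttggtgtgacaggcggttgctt
Asns: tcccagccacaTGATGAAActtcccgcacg
Chac1: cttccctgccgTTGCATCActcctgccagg
Atf3: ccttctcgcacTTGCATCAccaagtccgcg
Trib3: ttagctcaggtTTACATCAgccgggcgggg

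Values are the deposited log2 expression values, so a difference of 1 is a doubling, and all differences are Tsc1-/- minus WT. Each gene was tested with limma over all 17097 genes, with Benjamini-Hochberg adjustment and a threshold of 0.05. By this test 219 genes (1.28%) were called, 166 of them higher (0.971%) and 53 lower (0.31%). The higher genes were 75.8% of the calls, against 64.4% after quantile normalization and 87.0% after median centring. The targeted gene Tsc1 stood at 7.66 ± 0.09 (SD, 4 WT arrays) and 7.40 ± 0.09 (SD, 5 Tsc1-/- arrays), with no overlap (exact two-sided permutation p = 0.00794, the smallest these 126 splits can give; adjusted p = 0.114, limma). Its difference of -0.26 is a level of 83.3% of WT, with a 95% interval from 0.739-fold to 0.939-fold. Most of the Tsc1 signal thus remained, and how completely the gene was deleted was not tested. CD8 T cell markers were high in both groups, with Cd8a at 12.08 in WT and 12.10 in Tsc1-/-. Of 9 measured, 5 differences were positive and 4 negative. Gzmb, the granzyme B gene, was called higher (0.58, adjusted p = 0.0339, limma). Cd27 differed by -0.39 and did not pass (adjusted p = 0.0666, limma). The mean marker levels of other spleen cells overlapped between the genotypes, and most macrophage and B cell markers had negative differences. The mean macrophage and monocyte marker level was 6.19 to 6.90 in WT and 5.94 to 6.31 in Tsc1-/- (12 of 13 differences negative), and the B cell level 5.42 to 6.00 and 5.18 to 5.66 (9 of 9 negative). Of these 22 genes 1, the macrophage gene Spic, passed the threshold (-0.69), and log2 values have no zero at which a marker could be called absent. The mean level of 13 proliferation genes was 7.49 to 8.18 in WT and 8.36 to 8.73 in Tsc1-/-. In RNA from a cell population, fewer cells of a type and less RNA per cell cannot be told apart.

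None of the 9 genes passed the threshold, against 1.28% of all genes. Their adjusted p ran from 0.221 to 0.984 (limma). Slc3a2 alone had an unadjusted p under 0.05, which 17.2% of all genes had. The differences were positive for 6 genes and negative for 3, with a median of 0.08, while over all genes 48.2% were positive and the median was -0.01. The genotypes overlapped in all 9 genes, whereas they did not overlap in 7.96% of all genes. The mean level of the 9 genes was 8.0283 to 8.0845 on the WT arrays and 8.0860 to 8.3084 on the Tsc1-/- arrays, which meet almost without a gap and are given without a test. The 9 genes fell into 4 with differences of 0.22 to 0.25, namely Slc3a2, Slc7a5, Slc7a6 and Slc7a1, and 5 between -0.01 and 0.08. The 95% intervals of all 9 brightest probe sets lay between -0.25 and 0.52, that is between 84.2% of WT and 1.44-fold. Each interval holds for its own probe set, and that of a dimmer Slc38a2 probe set reached down to 0.722-fold.

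**Figure D1:**
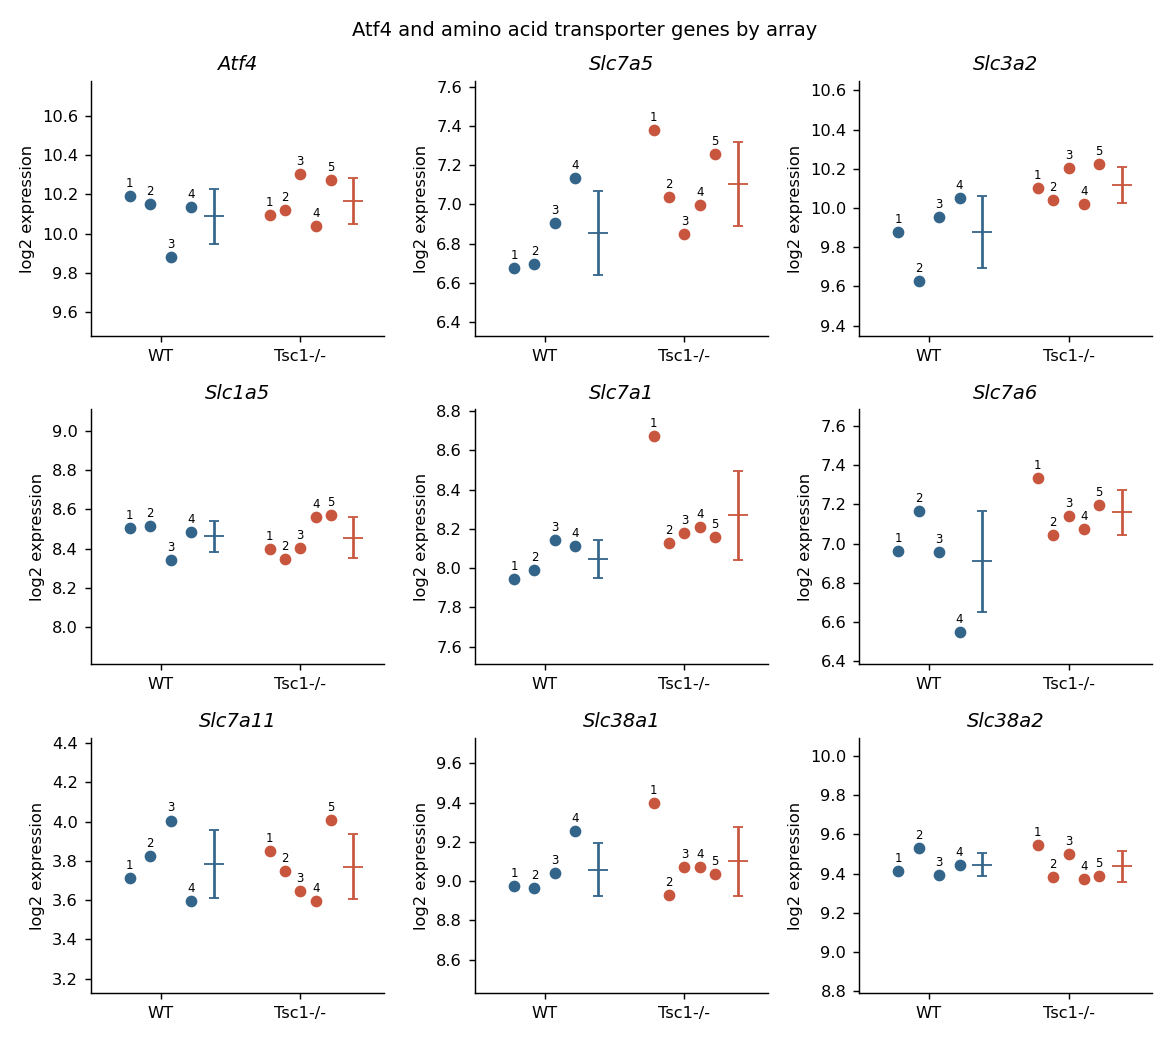
Log2 expression of the 9 genes (brightest probe set each) on every array, with WT in blue and Tsc1-/- in red, replicate numbers above the points, and mean and SD at the right of each group; each vertical axis spans the same log2 range. The genotypes overlap in all 9 panels, and Tsc1-/- replicate 1 stands above the other arrays for Slc7a1 (8.67).

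Atf4, the regulator of the set, was measured at 10.19, 10.15, 9.88 and 10.14 in WT replicates 1 to 4 and at 10.09, 10.12, 10.31, 10.04 and 10.27 in Tsc1-/- replicates 1 to 5. WT replicate 3 was the low array, and the other 3 WT arrays lay within the range of the Tsc1-/- arrays. The difference was 0.08 (SE 0.09, 95% interval -0.12 to 0.27, adjusted p = 0.720, limma), a level of 105% of WT. It was 0.0080 without WT replicate 3 and 0.25 with the proliferation level described above as a covariate. The interval reaches from 0.920-fold to 1.21-fold, so RNA changes within that range are compatible with these values. How large a change of Atf4 itself would have been called was not tested. A dimmer Atf4 probe set differed by 0.06 (95% interval -0.14 to 0.26).

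Slc3a2, the CD98 heavy chain on which Slc7a5, Slc7a6 and Slc7a11 depend for their place at the cell surface, showed the smallest p of the set. Its values were 9.88, 9.63, 9.96 and 10.05 in WT and 10.10, 10.04, 10.20, 10.02 and 10.22 in Tsc1-/-. Every Tsc1-/- array lay above the WT mean and 3 of 5 above the highest WT array, with WT replicate 4 above the lowest 2 Tsc1-/- arrays. The means were 9.88 ± 0.18 (SD, n = 4) and 10.12 ± 0.09 (SD, n = 5). The difference of 0.24 (SE 0.10, 95% interval 0.03 to 0.45) corresponds to 1.18-fold, with an exact permutation p = 0.0317 for the gene by itself and an adjusted p = 0.221 (limma). Without WT replicate 2, the lowest array, the difference was 0.16. Slc3a2 had a single probe set, of a type that can detect several transcripts of the gene.

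Slc7a5, the leucine-carrying light chain also called LAT1, was measured at 6.68, 6.69, 6.91 and 7.14 in WT and at 7.38, 7.04, 6.85, 6.996 and 7.26 in Tsc1-/-. The low arrays were WT replicates 1 and 2, while WT replicates 3 and 4 reached into the Tsc1-/- range. The means were 6.85 ± 0.22 (SD, n = 4) and 7.10 ± 0.21 (SD, n = 5), and the difference of 0.25 (SE 0.13, 95% interval -0.02 to 0.52) did not pass (exact permutation p = 0.127; adjusted p = 0.332, limma).

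The light chain Slc7a6, or y+LAT2, was measured at 6.96, 7.16, 6.96 and 6.55 in WT and at 7.33, 7.04, 7.14, 7.08 and 7.20 in Tsc1-/-. All Tsc1-/- arrays exceeded 3 of the 4 WT arrays, and WT replicate 2 lay among them. The difference was 0.25 (SE 0.12, 95% interval -0.0008 to 0.50, adjusted p = 0.292, limma), and without WT replicate 4, the lowest array, it was 0.13 (adjusted p = 0.518, limma). The dimmer Slc7a6 probe set went the other way, at -0.10 (95% interval -0.34 to 0.13), and the mean of both probe sets differed by 0.07.

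Slc7a1, the arginine transporter CAT-1, was measured at 7.95, 7.99, 8.15 and 8.11 in WT and at 8.67, 8.13, 8.18, 8.21 and 8.16 in Tsc1-/-. Of the Tsc1-/- arrays, 4 lay above every WT array, and replicate 1 stood well above the other 4. The difference was 0.22 (SE 0.11, 95% interval -0.02 to 0.47), with an exact permutation p = 0.0476 and an adjusted p = 0.338 (limma). Without Tsc1-/- replicate 1 it was 0.12 (SE 0.08, adjusted p = 0.464, limma). The other Slc7a1 probe sets differed by -0.07 (95% interval -0.38 to 0.25) and 0.12 (95% interval -0.16 to 0.39), so the 3 probe sets did not share a direction.

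The cystine exchanger gene Slc7a11, whose promoter window held the 2 matches shown above, read 3.71, 3.82, 4.01 and 3.59 in WT and 3.85, 3.75, 3.64, 3.60 and 4.01 in Tsc1-/-, in a table whose values run from 1.96 to 13.61. The arrays of both genotypes were fully mixed, and the difference was -0.01 (SE 0.11, 95% interval -0.25 to 0.22, adjusted p = 0.965, limma). Its second probe set read 3.07 ± 0.11 (SD, n = 4) and 3.20 ± 0.07 (SD, n = 5), a difference of 0.13 (95% interval -0.05 to 0.31). The table holds no detection calls, so whether Slc7a11 was above background was not tested, and a change of a transcript at background would not be seen.

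Of the glutamine carriers, Slc1a5, also called ASCT2, was measured at 8.51, 8.52, 8.34 and 8.48 in WT and at 8.40, 8.35, 8.40, 8.56 and 8.57 in Tsc1-/-. Its difference was -0.01 (SE 0.08), and the 95% interval of -0.18 to 0.17 reached up to 1.12-fold for this probe set. Slc38a1, or SNAT1, read 8.97, 8.97, 9.04 and 9.25 in WT and 9.40, 8.93, 9.07, 9.07 and 9.04 in Tsc1-/-. Each genotype had 1 high array, and the difference was 0.04 (SE 0.10, 95% interval -0.18 to 0.27), with -0.07 for the second Slc38a1 probe set, whose design allows it to bind transcripts of related genes.

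Slc38a2, or SNAT2, the glutamine and alanine carrier known to be induced by amino acid shortage, was measured at 9.41, 9.53, 9.39 and 9.44 in WT and at 9.55, 9.38, 9.50, 9.37 and 9.39 in Tsc1-/-. The brightest probe set differed by -0.01 (SE 0.07, 95% interval -0.17 to 0.15), the tightest interval of the set. The next probe set differed by -0.23 (95% interval -0.47 to 0.00, adjusted p = 0.320, limma) and the dimmest by 0.16 (95% interval -0.07 to 0.39, adjusted p = 0.495, limma). Neither passed, and the 3 estimates spread over more than the whole interval of the brightest.

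Over all 18 probe sets of the 9 genes, 10 differences were positive and 8 negative. None passed the threshold when limma was run on 28898 single-gene probe sets, of which 0.827% passed. The smallest adjusted p was 0.245, and 1 of the 18, that of Slc3a2, had an unadjusted p under 0.05, against 16% of the 28898. Of the 7 genes with several probe sets, Atf4 and Slc1a5 kept 1 sign over all of theirs, and Slc7a1, Slc7a6, Slc7a11, Slc38a1 and Slc38a2 did not.

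**Figure D2:**
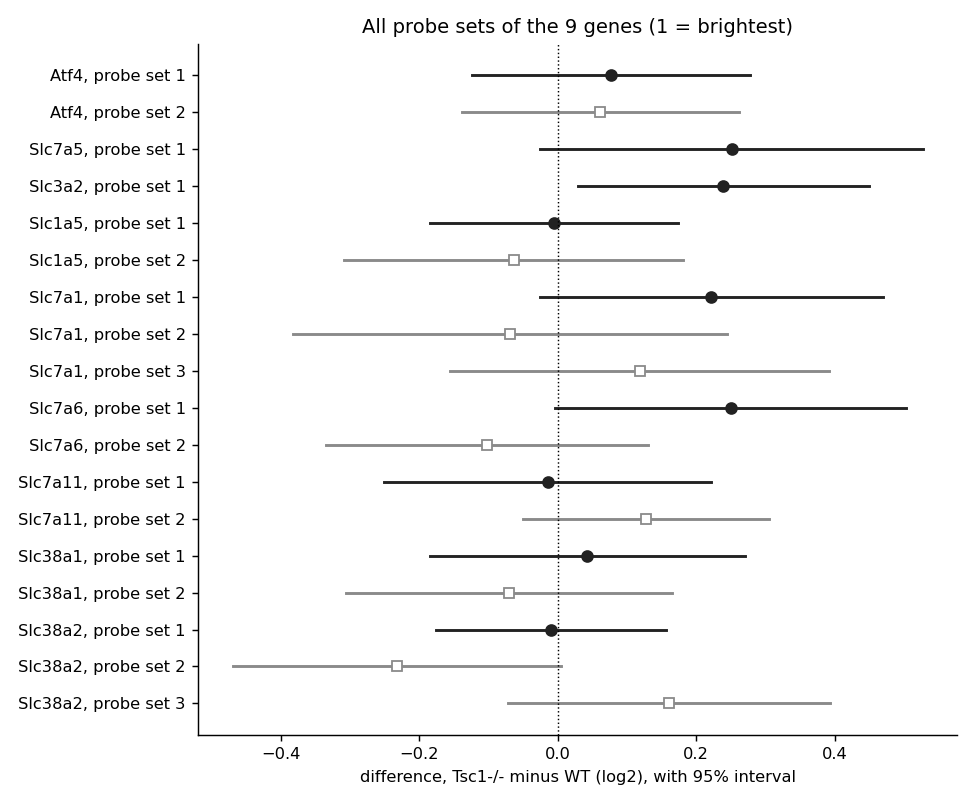
Difference in log2 expression, Tsc1-/- minus WT, with its 95% interval from limma for the 18 probe sets of the 9 genes; filled circles are the brightest probe set of each gene and open squares the others. Only the interval of Slc3a2 (0.03 to 0.45) leaves out 0, and the 3 Slc38a2 probe sets lie at -0.01, -0.23 and 0.16.

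Several of the 9 genes had their highest or lowest values on the same arrays. Tsc1-/- replicate 1 was the highest of all 9 arrays for 5 of the 9 genes (Slc7a5, Slc7a1, Slc7a6, Slc38a1 and Slc38a2). For what share of all genes it was the highest was not counted. Over all probe sets its r with the other Tsc1-/- arrays was 0.9866 to 0.9882, against 0.9898 to 0.9904 among those. It also had the highest proliferation marker level, 8.73. WT replicates 1 and 2 had the lowest proliferation levels, 7.52 and 7.49, and the lowest values of Slc3a2, Slc7a5 and Slc7a1. With the proliferation level of each array as a covariate, the difference was 0.0088 (SE 0.15) for Slc3a2, -0.23 (SE 0.16) for Slc7a5, -0.08 (SE 0.18) for Slc7a1 and 0.49 (SE 0.20, adjusted p = 0.630, limma) for Slc7a6. The proliferation level did not overlap between the genotypes, so these fits separate it from genotype only in part, as their larger standard errors show. With the macrophage level as the covariate, the differences were 0.09 (SE 0.14) for Slc3a2, 0.06 (SE 0.18) for Slc7a5, 0.24 (SE 0.18) for Slc7a1 and 0.55 (SE 0.13, adjusted p = 0.287, limma) for Slc7a6.

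**Figure D3:**
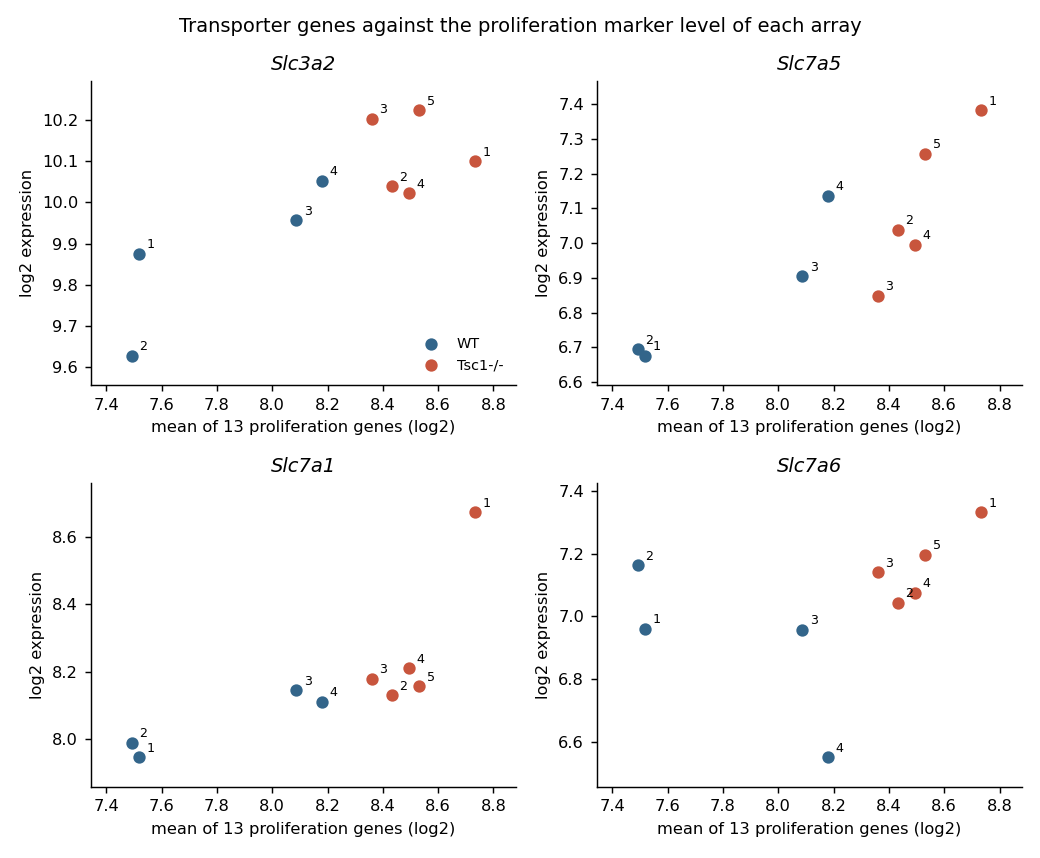
Log2 expression of Slc3a2, Slc7a5, Slc7a1 and Slc7a6 on each array against the mean log2 level of 13 proliferation genes on that array, with WT in blue, Tsc1-/- in red and replicate numbers beside the points. WT replicates 1 and 2 (7.52 and 7.49 on the horizontal axis) are the lowest arrays for Slc3a2, Slc7a5 and Slc7a1 but not for Slc7a6.

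Partners were compared across the 9 arrays in 11 relations, 3 of Slc3a2 with its light chains and 8 of Atf4 with each transporter. Slc3a2 and Slc7a5 had Pearson r = 0.67 (exact permutation p = 0.0441, adjusted p = 0.485) and Spearman rho = 0.70 (exact permutation p = 0.0433, adjusted p = 0.476). Without WT replicate 2 and Tsc1-/- replicate 5, the arrays farthest from the Slc3a2 median, r was 0.44, so the relation rests on them in part. Once the genotype means were removed, r was 0.48. Slc3a2 had r = 0.08 (exact permutation p = 0.808) and rho = 0.38 (p = 0.312) with Slc7a6, and r was -0.58 once the genotype means were removed. With Slc7a11 it had r = -0.01 (exact permutation p = 0.980) and rho = 0.10 (p = 0.810). Atf4 had r between -0.24 (Slc7a11) and 0.38 (Slc1a5) and rho between -0.27 and 0.43 with the 8 transporters, and the adjusted exact permutation p was 0.980 for each r and 0.716 or higher for each rho. Without WT replicate 3 and Tsc1-/- replicate 3, its farthest arrays, r with Slc7a11 was 0.67, so no direction can be read from that relation. Within a genotype there were too few arrays for a correlation.

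The amino acid response genes known as Atf4 targets were followed as a wider list. Of 25 listed, 23 were measured (all but Mthfd2 and Pycr1), and 15 differences were positive and 8 negative, with a median of 0.10, against -0.01 over all genes. None passed the threshold, and 7 of the 23 had an unadjusted p under 0.05, which 17.2% of all genes had. Psat1, of serine synthesis, was measured at 7.49, 8.07, 8.08 and 8.09 in WT and at 8.80, 8.40, 8.20, 8.46 and 8.56 in Tsc1-/-. The genotypes did not overlap for Psat1, as in 7.96% of all genes, and its difference of 0.56 (SE 0.14) had an adjusted p = 0.0759 (limma). Sesn2, an inhibitor of mTORC1 that senses leucine, differed by 0.39 (SE 0.14, adjusted p = 0.167, limma).

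Among the target genes whose windows are shown, Asns, the asparagine synthetase, differed by 0.47 (95% interval 0.07 to 0.88, adjusted p = 0.218, limma), while Chac1, which degrades glutathione, differed by -0.14, the transcription factor gene Atf3 by -0.0026 and Trib3, a pseudokinase gene, by -0.22. Of 23 target genes with a RefSeq window, 8 held a match (34.8%), against 4.51% of all genes with a window, in a list chosen for known regulation by Atf4. Over the 7 measured genes with a match, 2 differences were positive and 5 negative, with a median of -0.14. Over the 14 measured genes with a window and no match, 13 were positive and 1, Cebpb at -0.40, was negative, with a median of 0.18. This division was made after the values had been seen and is given without a test. It also split the genes in part by signal. WT means ran from 4.81 (Chac1) to 6.39 (Atf3) with a match, and from 5.67 (Stc2) to 9.34 (Ddit4) without. Whether signal level accounts for the difference in direction was not tested.

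Other amino acid transporters of the cell surface did not pass either. Of 27 measured (Slc1a4 and Slc36a4 were not), 6 differences were positive and 21 negative, with a median of -0.10. The mean level of the 27 was 5.4485 to 5.5086 on the WT arrays and 5.3602 to 5.4129 on the Tsc1-/- arrays. These ranges did not overlap and are given without a test. Both lay below the median gene mean of 6.34. The WT means of single genes of this list ran from 2.54 to 9.49, so not all were dim. Whether the transcripts of these genes were above background was not tested. Slc6a14, a broad amino acid importer, differed by -0.22 (SE 0.09, adjusted p = 0.223, limma) and Slc7a2, the arginine transporter CAT-2, by -0.16 (SE 0.07, adjusted p = 0.276, limma). The genotypes did not overlap for 1 of the 27 genes, Slc7a2, against 7.96% of all genes. Among 7 lysosomal transporters, 2 differences were positive and 5 negative. Ctns, which exports cystine from lysosomes, differed by 0.34 (SE 0.11, adjusted p = 0.134, limma), and Slc38a9, an arginine sensor upstream of mTORC1, by -0.27 (SE 0.10, adjusted p = 0.190, limma).

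Upstream of Atf4, 9 genes of eIF2alpha, its kinases, their regulators and its phosphatase subunits were listed. Of these, 8 were measured (all but Eif2s1, the gene of eIF2alpha itself), with 4 differences in each direction and a median of 0.02. The kinase gene Eif2ak3, or PERK, differed by 0.34 (SE 0.14, adjusted p = 0.224, limma) and Eif2ak1, or HRI, by 0.20 (adjusted p = 0.399, limma), and no gene of this list passed. Of 11 measured enzymes that use the imported amino acids, 6 differences were positive and 5 negative, none past the threshold. Odc1, which makes putrescine from ornithine, differed by 0.43 (SE 0.13, adjusted p = 0.116, limma) and Bckdhb, of branched-chain amino acid breakdown, by -0.24 (SE 0.09, adjusted p = 0.220, limma). In the same fit all 13 proliferation genes had positive differences, as 48.2% of all genes did. Of the 13, 6 were called higher, where 0.971% of all genes were. Among these 6 were Cdk1 by 0.73, Kif11 by 0.78, Nusap1 by 0.80 and Top2a by 0.67 (adjusted p of 0.0375 or lower, limma). The number of calls depends on single arrays: over all genes limma called 1 higher without WT replicate 1 or Tsc1-/- replicate 5, 2 without WT replicate 2 and 6 without Tsc1-/- replicate 2.

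**Figure D4:**
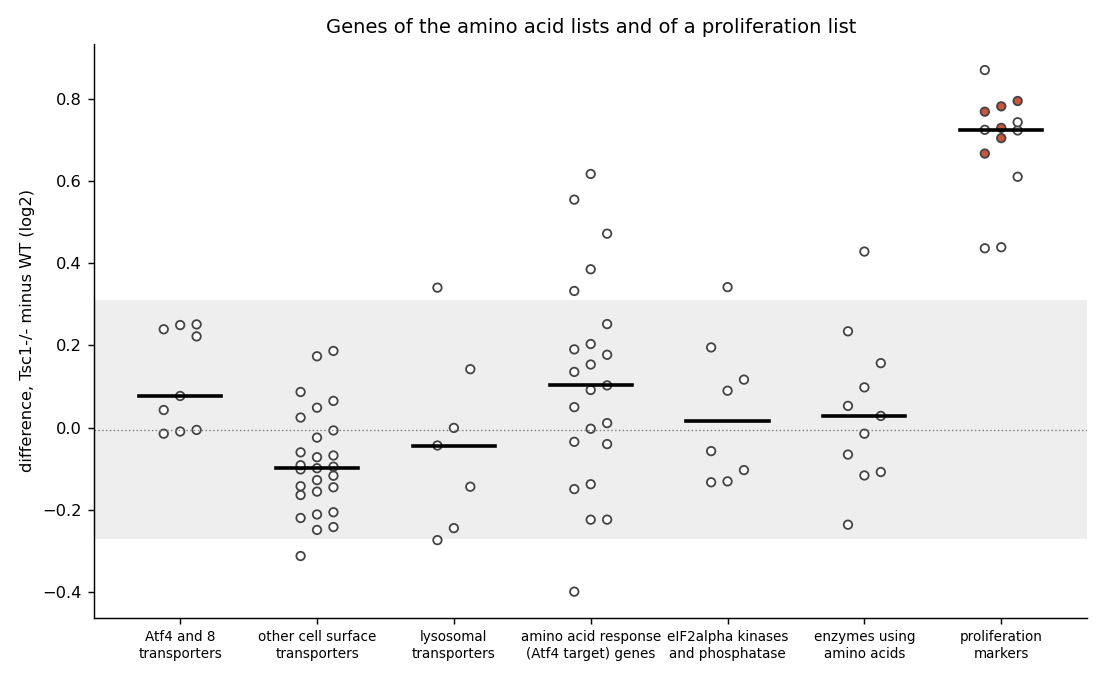
Difference in log2 expression, Tsc1-/- minus WT, of every measured gene in 7 lists (points, filled red where the adjusted p was under 0.05), with the list median as a bar; the grey band holds the middle 90% of all 17097 genes (-0.27 to 0.31) and the dotted line is their median. All 9 genes of the first list lie inside the band, and filled points occur only among the proliferation markers.

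The genes whose pattern over the 9 arrays was most like that of Atf4 were Elp4 (Pearson r = 0.94), AW011738 (0.91) and Dcn (0.90), with differences of 0.12, 0.09 and 0.01. Those most like Slc3a2 were Atp6v1a (r = 0.97), a subunit of the proton pump of lysosomes, Prkcsh (0.95), a glucosidase subunit of the endoplasmic reticulum, and Jcad (0.95), with differences of 0.30, 0.17 and 0.18. These are the highest of all genes compared over the same 9 arrays and are given as a description. None of the 6 passed the threshold (adjusted p of 0.241 or higher, limma).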

How the data were processed

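The table holds 9 expression arrays, 4 WT and 5 Tsc1-/-, grouped by the sample titles. The authors deposited log2 values, 1 per probe set and array. The submitters' processing notes name RMA and Partek 6.5, and options and filters were not found in the labels. RMA usually brings the distributions of the arrays together, so a change shared by most transcripts may not be seen. The array medians still ran from 5.97 to 6.05. Of 45037 probe sets, 28898 had 1 annotated gene, and symbols were updated through Entrez identifiers for 28689 of them. Each gene took its brightest probe set, which left 17097 genes.

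lmFit and eBayes of limma 3.58.1 (R 4.3.3) compared the genotypes two-sided, without covariates. Intervals are 95% moderated intervals, exact permutation tests used all 126 splits. Precision is limited by the 9 arrays. Figures were drawn in Python 3.11.15. The fit was tested on simulated data. The members, the other gene lists and the tests were chosen with earlier results of these data known. The genes named were Tsc1, all members, up to 4 called genes by p (else 2) of each amino acid list and of the proliferation list, and the 3 genes most like Atf4 and Slc3a2. Cd8a, a check of the cell type, Gzmb, Cd27 and Spic were added after their values were seen. So were, for the promoter windows, Asns, Chac1, Atf3, Trib3, Cebpb, Stc2 and Ddit4. Same-numbered replicates did not deviate together (r of -0.10, 0.09, -0.07 and 0.02), so they were not treated as pairs. Alternatives were other probe set rules, scalings, variance models, a replicate block, marker levels as covariates and omitted arrays.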

Additional observations from a re-analysis of the deposited data

Results flagged for a closer look

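The highest or lowest array of each genotype was set against the others of its group (Dixon's ratio, 95% critical value) in 64 groups, for the 18 probe sets of the 9 genes and the 14 list genes named by the rule. In 7 groups an array stood apart, where chance gives about 1 in 20, and the probe sets of a gene are not independent. For the brightest Atf4 probe set, WT replicate 3 read 9.88 against 10.14 to 10.19 on the other WT arrays, and for the dimmer Atf4 probe set WT replicate 2 read 5.98 against 6.25 to 6.28. For the brightest Slc7a1 probe set, Tsc1-/- replicate 1 read 8.67 against 8.13 to 8.21, and for the dimmest 8.51 against 7.81 to 8.0001. The same array read 9.11 for Eif2ak1, against 8.77 to 8.84 on the other Tsc1-/- arrays. WT replicate 1 read 7.49 for Psat1, against 8.07 to 8.09, and 7.94 for Odc1, against 8.33 to 8.36.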

How the results depend on the processing

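The count of the 9 genes past the threshold was 0 in all 22 other settings. Over 21 of them 188 differences were computed (Slc7a11 gave none with dim genes left out), 154 kept their sign, 34 did not, and the smallest adjusted p was 0.113 (Slc3a2, variance trend and robust estimation). An unadjusted p under 0.05 was found for 1 of the 9 genes as reported, 4 after median centring and 0 with the replicate block. Differences that changed sign, with the cause not tested, were those with the proliferation level as a covariate (Slc7a5 -0.23, Slc7a1 -0.085, Slc38a1 -0.25, Slc1a5 0.069, Slc38a2 0.0098), the macrophage level (Slc7a11 0.14, Slc38a1 -0.068, Slc38a2 0.041), the B cell level (Slc7a11 0.048, Slc38a1 -0.023, Slc38a2 0.029), median centring (Slc1a5 0.037, Slc7a11 0.028, Slc38a2 0.034), quantile normalization (Slc7a11 0.01, Slc38a1 -0.0046), the mean of probe sets (Slc7a11 0.057, Slc38a1 -0.014), the replicate block (Slc38a2 0.0035), and WT replicate 4 and Tsc1-/- replicate 1 left out together (Slc1a5 0.016). Leaving out 1 array gave 0.0080 to 0.11 for Atf4, -0.046 to 0.022 for Slc1a5, -0.078 to 0.059 for Slc7a11, -0.031 to 0.11 for Slc38a1 and -0.037 to 0.019 for Slc38a2. It gave correlations of -0.031 to 0.41 (Slc3a2 with Slc7a6), -0.33 to 0.13 (Slc3a2 with Slc7a11, 0.046 after quantile normalization), -0.23 to 0.12 (Atf4 with Slc7a5) and -0.61 to 0.30 (Atf4 with Slc7a11). Slc3a2 with Slc7a5 ran from 0.56 to 0.85 and passed without Tsc1-/- replicate 3 (exact permutation, adjusted p = 0.0467). The median difference of the 9 genes was 0.15 with dim genes left out, which removes Slc7a11, and 0.05 to 0.11 without 1 array.

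The counts over all genes (166 higher, 53 lower) moved more. They were 340 and 125 with array weights, 542 and 140 with dim genes left out, 509 and 171 with a variance trend and robust estimation, 529 and 209 at an adjusted p under 0.1, 58 and 32 after quantile normalization, 381 and 57 after median centring, and 248 and 145 without WT replicate 4 and Tsc1-/- replicate 1. With the replicate block or with the proliferation, macrophage or B cell level as a covariate limma called 0 and 0, with 2354, 1302, 1661 and 1838 genes at an unadjusted p under 0.05. Leaving out 1 array gave 1 to 297 higher and 1 to 159 lower genes. Among WT arrays the counts were 1 and 1 without the first, 2 and 1 without the second, 70 and 13 without the third and 297 and 159 without the fourth. Among Tsc1-/- arrays they were 142 and 46, 6 and 2, 41 and 12, 21 and 9, and 1 and 1, leaving out replicates 1 to 5 in turn.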
